A study of Mus musculus with 6 samples.

Results

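Mitochondrial complex I is described here through all genes whose symbol begins with Nduf in a liver RNA-sequencing table. With earlier results of these data known, the genes were taken by name and not by any measured value. They were 52 of the 29734 genes in the table: 37 nuclear genes for subunits of the complex, 8 Ndufaf assembly factors, 2 genes that carry the name but are not counted as subunits of complex I (Ndufa4 and Ndufa4l2), and 5 processed copies. Livers came from male mice given a Western diet, rich in fat and sugar, for 20 weeks from 8 weeks of age. The Prdx1 C52S group (3 libraries, numbered 1, 2 and 4) carried the Cys52Ser allele of Prdx1, a thiol peroxidase of the cytosol, and the wild-type (WT) group (3 libraries, numbered 6, 8 and 9) had the unaltered gene. Both groups received the diet, so no library shows the liver without it. The labels give neither the zygosity of the allele nor how it was made. The labels do not say that each library is a separate mouse, and p-values then measure only the spread between these libraries, which may be technical.

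Complex I, NADH:ubiquinone oxidoreductase, takes electrons from NADH, passes them along a flavin and a row of iron-sulfur clusters to ubiquinone, and pumps protons across the inner mitochondrial membrane. Its core subunits do the chemistry and the pumping, and its accessory subunits surround and stabilise the core. Assembly factors join modules, insert cofactors or modify subunits and are not kept in the finished enzyme. In hepatocytes it reoxidises the NADH that fatty acid oxidation and the citric acid cycle produce.

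Deposited estimated counts summed to between 60326469 and 76164949 per library, and all 52 Nduf genes passed the filter on low counts that left 18931 genes for testing. Albumin (Alb), the defining hepatocyte product, was between 18120 and 22280 FPKM (fragments counted per length of gene and depth of library), a high level in all 6 libraries. The library WT 8 stood apart from the other WT libraries, with 845.1 FPKM summed over 8 cholangiocyte markers against 231.1 and 360.4 in WT 9 and WT 6, and 35.2 FPKM over 5 Kupffer cell markers against 267 and 236.7. Spp1 made up most of the cholangiocyte sums, at 736.3 FPKM in WT 8 against 220.2 and 342.3 FPKM in WT 9 and WT 6. Each of the other cholangiocyte markers was also highest in WT 8. TMM factors correct library totals for composition. They were 1.04, 1.28 and 1.03 for WT 6, 8 and 9, while those of Prdx1 C52S ran from 0.88 to 0.92. Against library totals alone, TMM moved the median log2 fold change of all genes from -0.34 to -0.03, a shift of 0.31. Log2 fold changes below are with TMM unless library totals or another fit are named. A small positive value can change sign with library totals. In bulk tissue, fewer cells of a type and less RNA per cell cannot be told apart.

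Upstream sequences of 4 genes are shown, chosen for their order on FPKM. Ndufa10, Ndufb6 and Ndufb8 were among 8 of 37 subunit genes with FPKM higher in every Prdx1 C52S library than in any WT library. Ndufaf4 was the assembly factor with the opposite order, while the assembly factor Ndufaf1 had the order of these subunit genes. The 4 genes therefore do not stand for a difference between subunits and assembly factors. The sequences come from the RefSeq promoter table for GRCm38.p6, which held 42 sequences for 40 of the 52 genes. They run 5′ to 3′ on the strand of the gene up to the gene's start, with no transcribed base of the gene. Ndufa10 is at chr1:92473861-92474008 (minus strand, 148 bases), Ndufb6 at chr4:40279422-40279671 (minus strand, 250 bases), Ndufb8 at chr19:44555443-44555692 (minus strand, 250 bases) and Ndufaf4 at chr4:24897833-24898082 (plus strand, 250 bases). No exon annotated in GENCODE M21 lies in any of these windows. Capitals mark matches, on either strand, to 5 motifs: TGCGCA (the core of the NRF1 site), CCGGAAG (ETS and GABP), AAGATGG (YY1), GGGCGG (SP1) and AAGGTCA (the core of the ERR site).
Ndufa10: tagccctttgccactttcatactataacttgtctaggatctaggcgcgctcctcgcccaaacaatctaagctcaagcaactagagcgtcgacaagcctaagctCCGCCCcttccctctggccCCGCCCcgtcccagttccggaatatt
Ndufb6: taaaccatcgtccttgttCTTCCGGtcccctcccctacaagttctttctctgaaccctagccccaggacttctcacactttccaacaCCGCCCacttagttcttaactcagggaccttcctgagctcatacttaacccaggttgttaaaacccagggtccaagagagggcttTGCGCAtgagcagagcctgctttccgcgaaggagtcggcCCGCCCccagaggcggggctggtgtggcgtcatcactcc
Ndufb8: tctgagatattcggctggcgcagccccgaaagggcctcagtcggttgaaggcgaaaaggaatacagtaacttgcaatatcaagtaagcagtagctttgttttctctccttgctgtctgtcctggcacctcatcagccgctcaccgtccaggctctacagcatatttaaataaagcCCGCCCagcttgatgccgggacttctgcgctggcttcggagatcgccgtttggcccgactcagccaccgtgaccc
Ndufaf4: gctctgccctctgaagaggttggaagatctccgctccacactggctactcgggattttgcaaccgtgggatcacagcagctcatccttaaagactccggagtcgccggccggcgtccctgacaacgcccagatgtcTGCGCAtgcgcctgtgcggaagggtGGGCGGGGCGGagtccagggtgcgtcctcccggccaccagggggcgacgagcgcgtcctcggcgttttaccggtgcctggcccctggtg

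The Ndufb6 window held 4 matches: an ETS match 232 bases before the start, SP1 matches at 163 and 39 bases, and the NRF1 core at 78 bases. Ndufa10 held 2 SP1 matches and Ndufb8 held 1. Ndufaf4 held the NRF1 core 114 bases before the start and 2 SP1 matches at 89 and 84 bases, which share a base with each other, while no matches to different motifs overlapped in these windows. Over the full promoter sequences, which add 50 bases after the start, the NRF1 core was found in 11 of 34 subunit promoters (32.4%), beside 14.2% of the promoters of genes above 5 FPKM and 7.76% of all 32851 promoters. Ndufaf4 was the assembly factor with this match, 1 of 7 (14.3%). The YY1 letters were in 7 of 34 subunit promoters (20.6%), those of Ndufa3, Ndufa9, Ndufb8, Ndufc1, Ndufs4, Ndufs6 and Ndufs7. They were in 1 of 7 assembly factor promoters (14.3%) and in 7.78% of promoters of genes above 5 FPKM. SP1 letters were in 16 of 34 subunit promoters (47.1%) and 6 of 7 assembly factor promoters (85.7%) beside 61.2%. ETS letters were in 4 of 34 subunit promoters (11.8%) and 2 of 7 assembly factor promoters (28.6%) beside 18.2%, and the ERR letters in 3 of 34 (8.82%) beside 3.53% and in 0 of the 7 assembly factor promoters. These are counts of letters in a window and not of bound factors.

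The comparison asked whether complex I transcripts differ between Prdx1 C52S and WT livers after the same diet. All 37 subunit genes had a positive log2 fold change (Prdx1 C52S minus WT) after TMM scaling, from 0.12 for Ndufa12 to 0.50 for Ndufa10, with a median of 0.34 beside -0.03 for all genes tested. None of them passed an adjusted p of 0.05 in edgeR's quasi-likelihood test with Benjamini-Hochberg adjustment, and neither did any gene in the table (0% called). At an unadjusted p under 0.05, 24 of the 37 (64.9%) were higher, beside 11.5% of all genes tested, and 0 were lower, beside 14.8%. DESeq2 called 5 subunit genes higher at its adjusted p of 0.05, beside 6.35% of all genes it tested, and limma-voom with library quality weights called 10, beside 5.15%. The count of 24 at an unadjusted p was 22 without WT 8, beside 11.2% of all genes, and 14 without Prdx1 C52S 2 or without Prdx1 C52S 4.

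The direction rested on the scaling. With library totals alone the subunit median was 0.04 and 26 of the 37 genes were positive, with 1 gene (Ndufa10) at an unadjusted p under 0.05, beside 3.73% of all genes higher at that level. Relative to the median of all genes, the subunits were higher by 0.37 under TMM and by 0.38 under library totals, values that are close by construction, since the scaling shifts all genes by nearly the same amount. Without WT 8 the subunit median was 0.25, and edgeR's quasi-likelihood test called 2 subunit genes higher, Ndufa10 (adjusted p = 0.0468) and Ndufv1 (adjusted p = 0.0492), beside 2.7% of all genes. Both lay between 20 and 100 FPKM, where 181 of 1411 genes were called higher in this fit.

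On the deposited FPKM scale 8 of the 37 subunit genes (21.6%) had every Prdx1 C52S library above every WT library, beside 6.09% of all genes tested, and 0 had the opposite order, beside 36.7%. These 8 were Ndufa10, Ndufb6, Ndufv1, Ndufs1, Ndufb8, Ndufa9, Ndufb5 and Ndufc1, named after their values were seen. On TMM-scaled counts the groups did not overlap for 29 of the 37 (78.4%), all higher in Prdx1 C52S, beside 16.9% of all genes higher and 18% lower. Among the WT libraries, WT 6 had the lowest FPKM for 19 subunit genes and WT 8 for 9, whereas after TMM scaling WT 8 was the lowest for 35. WT 9 was close to the Prdx1 C52S libraries on FPKM, with the highest value of all libraries for 9 subunit genes. The subunit genes together took 0.241%, 0.238% and 0.245% of all counts of Prdx1 C52S 1, 2 and 4, against 0.222%, 0.227% and 0.240% of those of WT 6, 8 and 9, so that on this measure WT 9 overlapped the Prdx1 C52S group.

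**Figure D1:**
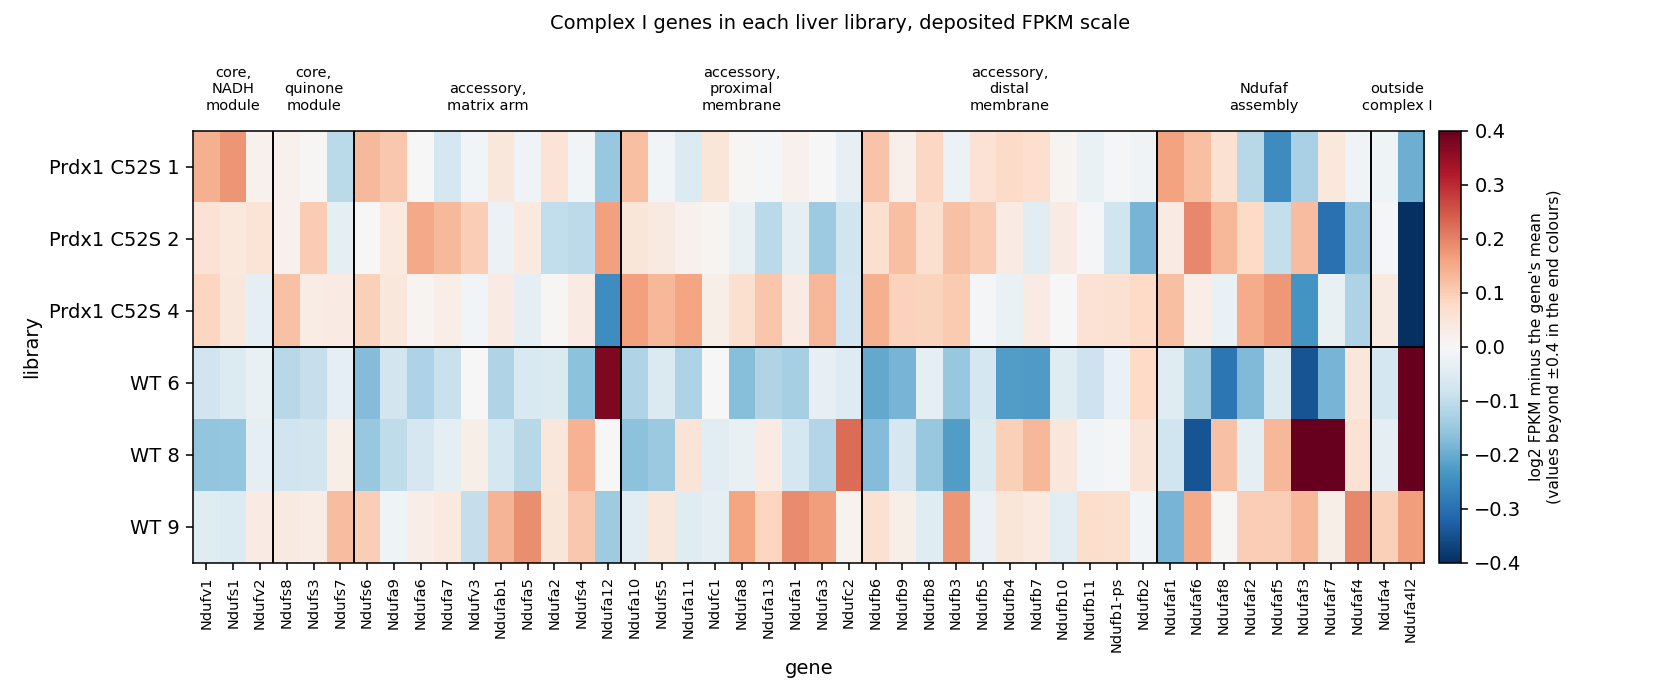
Columns are Nduf genes, ordered by module, and each line of squares is a library. Colour gives log2 FPKM minus the mean of that gene over the 6 libraries, and most subunit columns are redder in the 3 Prdx1 C52S libraries and bluer in WT 6 and WT 8, with WT 9 between or above them and Ndufa4l2 in the reverse order.

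The NADH dehydrogenase module, where NADH is oxidised, holds 3 core subunits encoded in the nucleus. Their median log2 fold change of 0.45 was the highest among the groups of nuclear subunit genes. Ndufv1, which binds the flavin, was at 48.8, 45.9 and 46.9 FPKM in Prdx1 C52S 1, 2 and 4 and at 41.8, 39.5 and 42.7 FPKM in WT 6, 8 and 9. The groups did not overlap, with means of 47.2 ± 1.46 and 41.4 ± 1.63 FPKM (SD, n = 3 each) and a log2 fold change of 0.47 (SE 0.136, adjusted p = 0.108 by edgeR). With library totals alone this difference was 0.18. Ndufs1, the largest subunit and the carrier of several iron-sulfur clusters, was at 17.1, 15.6 and 15.6 FPKM in the Prdx1 C52S libraries and at 14.5, 13.6 and 14.5 FPKM in the WT libraries. Its groups did not overlap either (log2 fold change 0.45 with SE 0.139, adjusted p = 0.114 by edgeR). Ndufv2, which holds a further iron-sulfur cluster beside the flavin site, was at 34.0, 34.9 and 32.7 FPKM against 32.9, 32.7 and 34.4 FPKM. The Ndufv2 groups overlapped on FPKM, the means of 33.9 ± 1.12 and 33.3 ± 0.895 FPKM (SD, n = 3 each) differed by less than their spread, and the log2 fold change was 0.30 after TMM (SE 0.123, adjusted p = 0.173 by edgeR) and 0.01 with library totals.

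The ubiquinone module, which carries electrons from the NADH module to the quinone, has 4 nuclear core subunits, and their median log2 fold change was 0.37. None of them had groups without overlap on FPKM. Ndufs3, an early subunit of the assembly, was at 30.9, 33.0 and 31.5 FPKM in Prdx1 C52S and at 28.9, 29.3 and 31.5 FPKM in WT (log2 fold change 0.37 with SE 0.126, adjusted p = 0.129 by edgeR). WT 9 was the WT library closest to Prdx1 C52S. Ndufs8, which holds a pair of iron-sulfur clusters on the way to the quinone, was at 36.5, 36.4 and 39.1 FPKM against 33.3, 34.1 and 36.9 FPKM (log2 fold change 0.38 with SE 0.124, adjusted p = 0.122 by edgeR). Ndufs7, the carrier of the last cluster before the quinone, was at 19.9, 20.9 and 21.9 FPKM against 20.9, 21.8 and 23.3 FPKM. Its FPKM mean was lower in Prdx1 C52S (20.9 ± 1.02 against 22.0 ± 1.23 FPKM, SD, n = 3 each), and its log2 fold change was 0.21 with TMM (SE 0.123, adjusted p = 0.318 by edgeR) and -0.08 with library totals.

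For the 10 accessory subunits of the matrix arm the median log2 fold change was 0.33, and 6 of them had an unadjusted p under 0.05, beside 11.5% of all genes. Their values ran from 0.12 for Ndufa12 to 0.42 for Ndufs6, a zinc-binding subunit. Ndufa9, which has a nucleotide-binding fold near the quinone site, was the member without overlap on FPKM, with 44.7, 42.6 and 42.8 FPKM in Prdx1 C52S and 39.4, 38.7 and 41.0 FPKM in WT. Ndufa12, which docks late in the maturation of the arm, was at 9.58, 11.9 and 8.95 FPKM in Prdx1 C52S and at 13.8, 10.7 and 9.64 FPKM in WT. The highest Ndufa12 value was that of WT 6, and the counts of the gene are given with those of its processed copy further on.

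In the proximal part of the membrane arm, with 9 accessory subunits, the median log2 fold change was 0.30, and 4 of them had an unadjusted p under 0.05, beside 11.5% of all genes. Ndufa10, a nucleoside kinase-like subunit, had the highest log2 fold change of the 37 subunit genes. It was at 35.2, 33.5 and 36.4 FPKM in Prdx1 C52S and at 29.8, 28.9 and 31.4 FPKM in WT, with means of 35.0 ± 1.44 and 30.0 ± 1.26 FPKM (SD, n = 3 each). The means differed by more than the range within either group, with a log2 fold change of 0.50 (SE 0.136, adjusted p = 0.0998 by edgeR), 0.21 with library totals and 0.39 without WT 8. Ndufc1, a small single-span membrane subunit, also had groups that did not overlap, at 12.9, 12.6 and 12.7 FPKM against 12.5, 12.1 and 12.2 FPKM, although Prdx1 C52S 2 and WT 6 were nearly equal. Ndufc2 was among the subunit genes with the smallest difference, at 47.2, 45.7 and 45.8 FPKM against 46.5, 56.4 and 48.8 FPKM. Its WT 8 value was the highest of the 6 libraries, and its log2 fold change was 0.17 with TMM (SE 0.079, adjusted p = 0.229 by edgeR) and -0.14 with library totals.

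In the distal part of the membrane arm, with 11 accessory subunits, the median log2 fold change was 0.34, and 8 of them had an unadjusted p under 0.05, beside 11.5% of all genes. Ndufb6, an accessory subunit of this arm, was at 58.7, 56.6 and 59.8 FPKM in Prdx1 C52S and at 47.0, 48.1 and 56.5 FPKM in WT. Its groups were separated by a small margin between Prdx1 C52S 2 and WT 9 (log2 fold change 0.49 with SE 0.141, adjusted p = 0.107 by edgeR). Ndufb9, of the family of LYR-motif proteins that bind the acyl carrier protein, had the highest deposited level of the 37 subunit genes, at 105.1, 112.7 and 110.4 FPKM against 91.1, 98.9 and 105.3 FPKM. Prdx1 C52S 1 lay just below WT 9 (log2 fold change 0.44 with SE 0.13, adjusted p = 0.11 by edgeR). Ndufb8, a single-span subunit, was at 21.1, 20.8 and 21.2 FPKM against 19.4, 18.0 and 19.3 FPKM, and Ndufb5 was at 11.1, 11.5 and 10.6 FPKM against 10.2, 10.3 and 10.5 FPKM. Neither gene overlapped between the groups. Ndufb2 had the lowest deposited level, at 4.32, 3.84 and 4.61 FPKM against 4.61, 4.52 and 4.32 FPKM, with overlapping groups and a log2 fold change of 0.21 with TMM (SE 0.12, adjusted p = 0.307 by edgeR) and -0.08 with library totals.

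**Figure D2:**
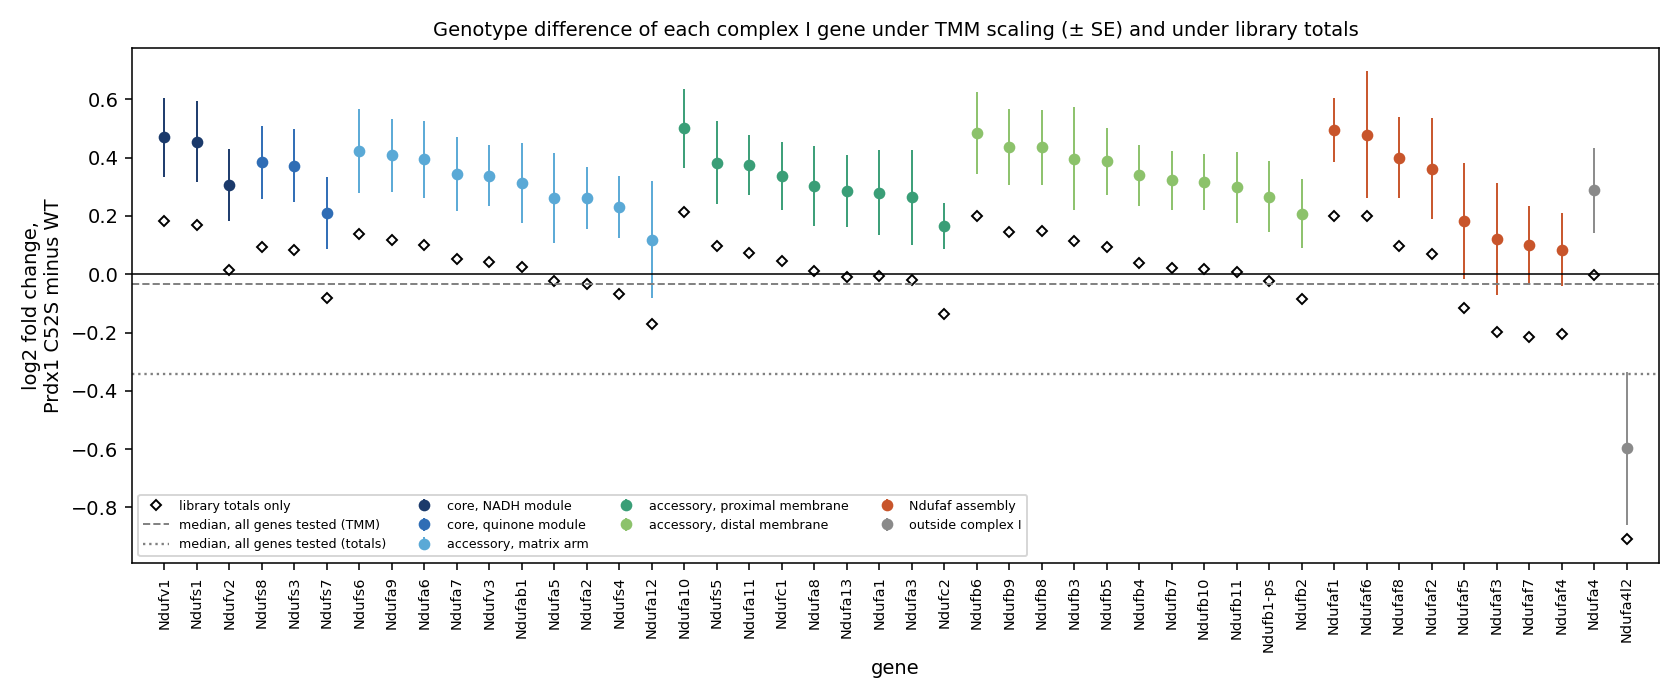
Points give the TMM-scaled log2 fold change (Prdx1 C52S minus WT) of Nduf genes with their SE, coloured by module, and open diamonds give the same difference with library totals only. All filled points of the subunits lie above 0 and the diamonds lie on both sides of it, while the dashed and dotted lines mark the all-gene medians of -0.03 and -0.34.

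Among the 8 Ndufaf assembly factors the median log2 fold change was 0.27 after TMM and -0.02 with library totals. All 8 were positive with TMM, and 2 (25%) had an unadjusted p under 0.05 (Ndufaf1 and Ndufaf8), beside 11.5% of all genes tested and 20.7% of those from 5 to 20 FPKM. In edgeR's quasi-likelihood test 0 passed an adjusted p of 0.05, with 1 called by DESeq2, beside 6.35% of all genes, and 1 by limma-voom, beside 5.15%. The count of 2 was 1 without Prdx1 C52S 1, Prdx1 C52S 2 or WT 6, and 4 without WT 9. Their log2 fold changes ran from 0.08 to 0.49. Ndufaf1, a chaperone of the membrane arm and part of the mitochondrial complex I assembly complex, was at 15.9, 14.5 and 15.4 FPKM in Prdx1 C52S and at 13.7, 13.4 and 12.5 FPKM in WT. The groups did not overlap, with means of 15.3 ± 0.684 and 13.2 ± 0.654 FPKM (SD, n = 3 each), and the log2 fold change was 0.49 (SE 0.109, adjusted p = 0.0828 by edgeR) and 0.20 with library totals. Ndufaf4, which works with the ubiquinone module, had the reverse order on FPKM, at 7.84, 7.11 and 7.27 FPKM in Prdx1 C52S and at 8.17, 8.24 and 9.04 FPKM in WT. Its means were 7.40 ± 0.386 and 8.49 ± 0.483 FPKM (SD, n = 3 each), and its log2 fold change was 0.08 with TMM (SE 0.125, adjusted p = 0.709 by edgeR), -0.20 with library totals and -0.03 without WT 8. On FPKM the groups of 1 of the 8 (Ndufaf1) were thus higher without overlap and those of 1 (Ndufaf4) lower, 12.5% each, beside 6.09% and 36.7% of all genes tested, so that an order like that of Ndufaf4 was common in the table.

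The other 6 assembly factors overlapped between the groups on FPKM. Ndufaf8, a small partner of Ndufaf5, was at 10.5, 11.0 and 9.84 FPKM against 8.20, 10.9 and 10.1 FPKM (log2 fold change 0.40 with SE 0.14, adjusted p = 0.135 by edgeR), and WT 6 was the low library. Ndufaf5, which hydroxylates an arginine of Ndufs7, was at 1.99, 2.22 and 2.67 FPKM against 2.28, 2.60 and 2.54 FPKM (log2 fold change 0.18, SE 0.199). The Ndufaf5 values of Prdx1 C52S spanned the WT range. Ndufaf7, a methyltransferase that modifies a core subunit, was at 3.97, 3.14 and 3.77 FPKM against 3.39, 5.25 and 3.92 FPKM (log2 fold change 0.10, SE 0.134), with WT 8 the high library. Ndufaf3, the partner of Ndufaf4, was at 3.80, 4.53 and 3.52 FPKM against 3.28, 5.72 and 4.56 FPKM (log2 fold change 0.12, SE 0.192), and WT 8 was again the highest. Ndufaf6, a protein related to phytoene synthases that acts early in assembly, was at 6.40, 6.74 and 6.00 FPKM against 5.35, 4.64 and 6.55 FPKM (log2 fold change 0.48 with SE 0.217, adjusted p = 0.211 by edgeR). Ndufaf2, a paralog of Ndufa12 that holds its place until late in assembly, was at 2.21, 2.53 and 2.65 FPKM against 2.11, 2.32 and 2.56 FPKM (log2 fold change 0.36 with SE 0.174, adjusted p = 0.232 by edgeR). Ndufaf2 and Ndufaf6 thus had log2 fold changes as high as many subunits, with wider errors.

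Subunits and assembly factors were set against each other within each library, where the scaling between libraries has no part. The median log2(FPKM + 0.1) of the 37 subunit genes minus that of the 8 Ndufaf genes was 2.73, 2.64 and 2.91 in Prdx1 C52S 1, 2 and 4, against 2.87, 2.56 and 2.63 in WT 6, 8 and 9. The groups overlapped, and their means of 2.76 ± 0.137 and 2.69 ± 0.165 (SD, n = 3 each) differed by 0.07, less than the spread between libraries. The median log2 fold changes of the sets differed by 0.07 as well. The shares with an unadjusted p under 0.05 were 64.9% of the subunits and 25% of the assembly factors, but the assembly factors were read at lower levels, with a median of 5.09 FPKM against 33.6 FPKM.

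Transcript level moved with the genotype difference over the whole table. Median log2 fold changes of all genes tested were -0.17 at a mean of 0.5 to 2 FPKM, -0.04 at 2 to 5 FPKM, 0.11 at 5 to 20 FPKM, 0.25 at 20 to 100 FPKM and 0.41 at 100 FPKM or more. Of the subunit genes, 24 lay between 20 and 100 FPKM, and their median of 0.35 was 0.10 above that of all 1411 genes in this class. The 11 subunit genes between 5 and 20 FPKM were 0.22 above their class. Of the 37, 35 lay above the median of their class, as did 7 of the 8 assembly factors. In the class of 20 to 100 FPKM, 35.9% of genes had an unadjusted p under 0.05 and were higher, 46.6% had higher groups without overlap on TMM-scaled counts, and 21.5% had them on FPKM, beside 64.9%, 78.4% and 21.6% of all 37 subunit genes. The subunit shares cover all 37 genes, of which 24 lay in this class, so they are not shares within it. Of the 8 subunit genes higher without overlap on FPKM, Ndufs1, Ndufb8, Ndufb5 and Ndufc1 lay between 5 and 20 FPKM. In that class 7.29% of all genes had this order. The subunit genes had a narrower spread between libraries: the median SD of log2 FPKM was 0.058 in Prdx1 C52S and 0.077 in WT for the subunits, against 0.094 and 0.185 for the class. No test was made of these differences between genes, which share the same 6 libraries. The 4 assembly factors between 2 and 5 FPKM were 0.19 above their class, and the 4 between 5 and 20 FPKM 0.33 above theirs.

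**Figure D3:**
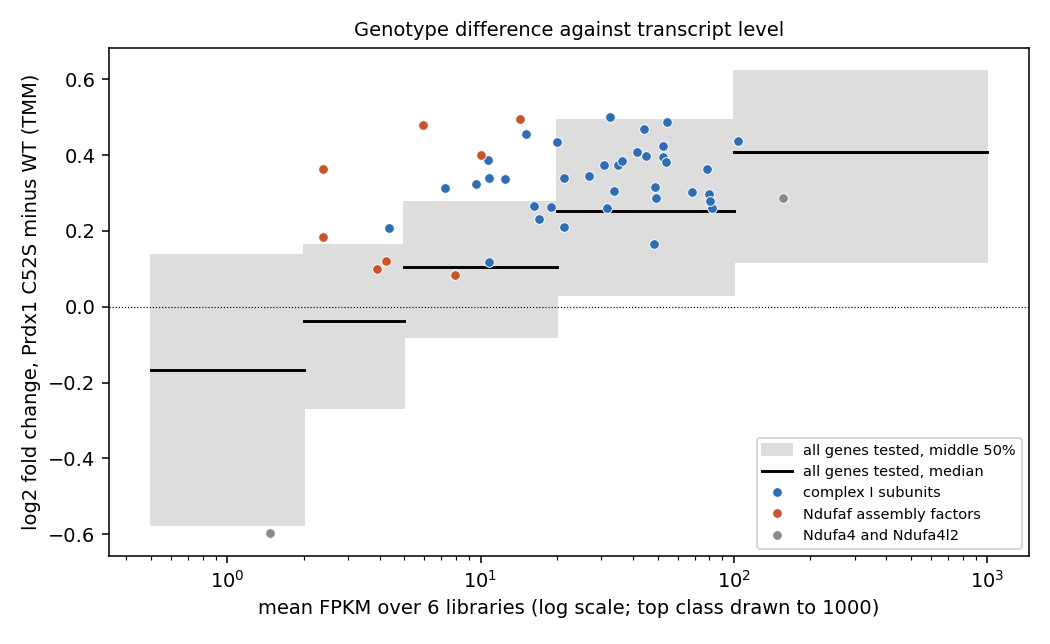
The horizontal axis is mean FPKM over the 6 libraries on a log scale and the vertical axis the TMM-scaled log2 fold change. Grey boxes and black lines give the middle 50% and the median of all genes tested in 5 level classes, with medians from -0.17 to 0.41, and 35 of 37 subunits (blue) and 7 of 8 assembly factors (red) lie above the median of their class.

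Within the subunits, the genotype difference was largest for the longest coding sequences, a pattern with no test. The median log2 fold change was 0.43 for the 6 subunit genes with a coding length of at least 900 bases, 0.31 for the 12 genes from 450 bases to below 900, and 0.32 for the 19 genes under 450 bases. Ndufb1-ps has no annotated coding sequence and was counted among the 19 with a length of 0. Across the 37 genes, Spearman's rho of log2 fold change with coding length was 0.402 and with level 0.199, a description over genes that share 6 libraries. With library totals alone the same length classes had medians of 0.14, 0.02 and 0.02.

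Levels between subunit genes depend on the gene length behind FPKM. The deposited values were reproduced, up to a constant factor, with the summed length of all annotated exons of a gene, which for Ndufb2 is 5628 bases although the transcript with its longest coding sequence has 455. On the deposited scale the 37 subunit genes spanned 23.8-fold, from Ndufb2 (4.37 FPKM) to Ndufb9 (103.9 FPKM). Rescaled to the transcript with the longest coding sequence they spanned 7.36-fold, from Ndufv3 (21.8 FPKM) to Ndufa6 (160.5 FPKM), and Ndufb2 stood at 54.0 FPKM. The orders on both scales had a Spearman's rho of 0.607 over the 37 genes. Beside Ndufb2, whose exon sum was 12.4 times the transcript, the largest ratios were those of Ndufb7 (7.26), Ndufab1 (4.86), Ndufc1 (4.75), Ndufb5 (4.63) and Ndufb8 (4.63). Of these, Ndufab1 was among the lowest subunit genes on both scales, at 7.25 FPKM as deposited and 35.2 FPKM rescaled. The rescaled level assumes that a single transcript carries all counts of its gene and leaves the comparison of genotypes within a gene as it was. For Ndufb1-ps, with no annotated coding sequence, the shortest transcript was used.

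**Figure D4:**
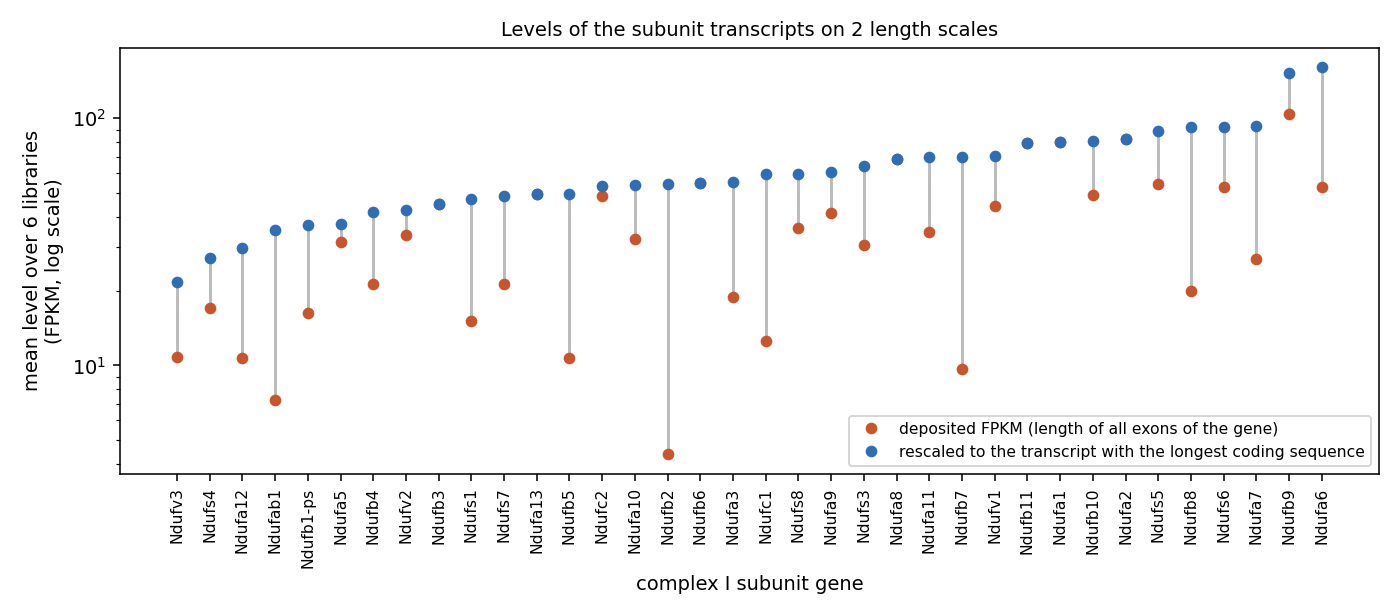
Red points give the deposited mean FPKM of subunit genes over 6 libraries and blue points the same counts rescaled to the transcript with the longest coding sequence, on a log axis. The genes are ordered by the blue points, which span 7.36-fold, while the red points span 23.8-fold with Ndufb2 lowest.

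Ndufa12 has a processed copy, Ndufa12-ps, and how reads that match both were assigned is not given. In Prdx1 C52S 1, 2 and 4 the copy held 51.6%, 37.1% and 51.4% of their summed counts, and the shares were 17.1%, 46.3% and 47.7% in WT 6, 8 and 9. WT 6 had the lowest share of the copy and the highest Ndufa12 value, and whether reads moved between them was not tested. Before scaling for depth the summed counts were 2611, 2486 and 1937 for the Prdx1 C52S libraries, against 2095, 2586 and 2396 for WT. With the counts of both summed before the fit, the log2 fold change was 0.35 (SE 0.091, adjusted p = 0.096 by edgeR), beside 0.12 (SE 0.201) for the gene and 0.67 for the copy alone. The summed value was close to the subunit median of 0.34. Of the other copies, Ndufb4c held between 12% and 13.5% of its counts summed with those of Ndufb4, and the copies of Ndufab1, Ndufs5 and Ndufs6 held at most 3.81%. Ndufb1 appears in the table under the symbol Ndufb1-ps and was counted as the subunit gene.

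**Figure D5:**
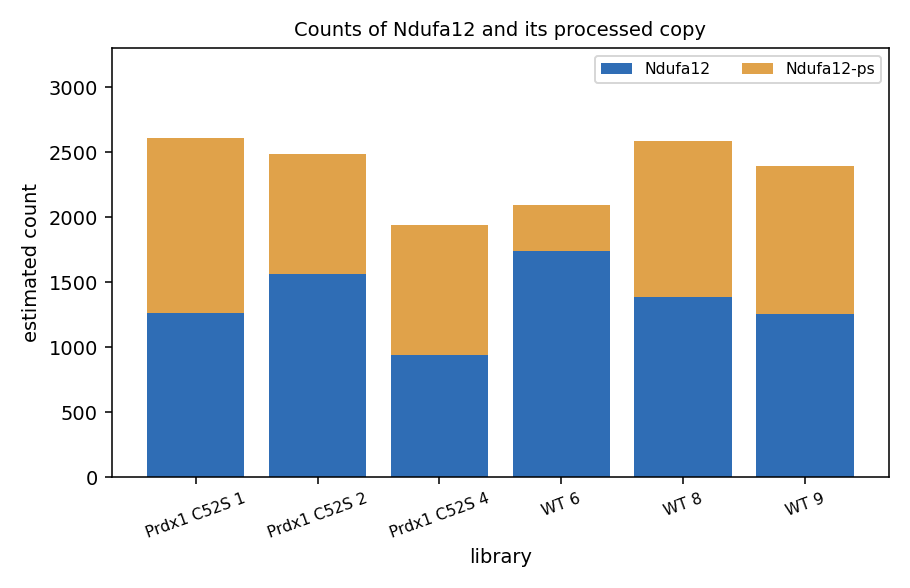
Bars give the estimated counts of Ndufa12 (blue) and Ndufa12-ps (orange) in each library, stacked from 0. The split between them differs in WT 6, where the copy has 17.1% of the sum, while the sums range from 1937 to 2611 counts.

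The Nduf-named genes that are not counted as complex I subunits behaved differently from each other. Ndufa4, now placed in cytochrome c oxidase, was at 154.8, 156.0 and 160.8 FPKM in Prdx1 C52S and at 149.2, 152.9 and 167.4 FPKM in WT. Its groups overlapped, with a log2 fold change of 0.29 with TMM (SE 0.145, adjusted p = 0.25 by edgeR) and -0.0022 with library totals. Ndufa4l2, a paralog known as a hypoxia-inducible transcript, was at 1.21, 0.909 and 0.943 FPKM in Prdx1 C52S and at 1.84, 2.36 and 1.55 FPKM in WT. It was lower in every Prdx1 C52S library than in any WT library on both scales, with means of 1.02 ± 0.164 and 1.92 ± 0.409 FPKM (SD, n = 3 each) and a log2 fold change of -0.60 (SE 0.262, adjusted p = 0.199 by edgeR). This order was common: 36.7% of all genes tested had it on FPKM and 18% on TMM-scaled counts. Among the 4378 genes from 0.5 to 2 FPKM, 1835 and 1117 had it. With TMM scaling the log2 fold changes of the 51 Nduf genes other than Ndufa4l2 were positive. Ndufa4l2 shares 32 exonic bases with Shmt2 on the other strand. Of the markers of other liver cells, all 8 cholangiocyte, 8 macrophage, 5 T cell and 6 stellate cell markers had negative log2 fold changes, with medians of -2.93, -0.86, -2.13 and -0.89. Without WT 8 the cholangiocyte median was -1.57. All 5 Kupffer cell and 5 erythroid markers were positive (medians 0.47 and 2.07), as were 3 of 5 endothelial markers (median 0.23). Without WT 8 the Kupffer cell and endothelial medians were -0.08 and -0.16. With library totals, 3 of 5 Kupffer cell and 2 of 5 endothelial markers were positive. The part of these cell types in the Ndufa4l2 value was not tested.

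The same cell type lists bear on the subunits. For hepatocyte markers the median log2 fold change was 0.13 with TMM (6 of 10 positive) and -0.16 with library totals (3 of 10 positive). They summed to 33330, 35040 and 34210 FPKM in the Prdx1 C52S libraries, against 33680, 32400 and 32410 FPKM in the WT libraries. Alb made up most of each sum, between 20760 and 22280 FPKM in Prdx1 C52S and between 18120 and 19650 FPKM in WT. On FPKM, 2 of the 10, Alb among them, were higher without overlap and 3 lower, beside 6.09% and 36.7% of all genes tested. Cholangiocyte markers summed to between 63.65 and 132.7 FPKM in Prdx1 C52S and between 231.1 and 845.1 FPKM in WT, macrophage markers to between 200.1 and 227.6 FPKM and between 475.9 and 523.4 FPKM. Most of each cholangiocyte sum was Spp1. Stellate cell and fibroblast markers summed to between 57.41 and 78.58 FPKM against 93.5 to 158.5 FPKM, and T cell markers to between 0.763 and 1.04 FPKM against 2.65 to 5.78 FPKM. Kupffer cell markers summed to between 162.3 and 206.3 FPKM against 35.2 to 267 FPKM, and Timd4 among them was at 0 in WT 8. Endothelial markers summed to between 27.1 and 28.6 FPKM against 25.4 to 37.4 FPKM, and erythroid markers to between 252.4 and 1085 FPKM against 128.7 to 277.6 FPKM. The part of these cell types in the subunit values was not tested.

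The complex I subunits encoded in mitochondrial DNA, 7 genes, form the proton-pumping membrane core. The median of their log2 fold changes was 0.52, and all 7 were positive. At an unadjusted p under 0.05, 4 of the 7 were higher, beside 11.5% of all genes. mt-Nd6 was at 2120, 2029 and 2037 FPKM in Prdx1 C52S and at 1465, 1684 and 1891 FPKM in WT (log2 fold change 0.58 with SE 0.176, adjusted p = 0.113 by edgeR). mt-Nd4l was at 2904, 2886 and 2673 FPKM against 2424, 2217 and 2487 FPKM, and mt-Nd5 at 2240, 2080 and 2025 FPKM against 1579, 1825 and 1920 FPKM. Their groups did not overlap, and neither did those of mt-Nd2 and mt-Nd4, which are named for this order. On FPKM 5 of the 7 were thus higher without overlap and 1 lower, beside 6.09% and 36.7% of all genes tested. mt-Nd3 had the reverse order on FPKM, at 1074, 1038 and 1051 against 1110, 1079 and 1164. With library totals the median of the 7 was 0.24. Without WT 8 edgeR's quasi-likelihood test called mt-Nd4 (adjusted p = 0.0313) and mt-Nd4l (adjusted p = 0.0468), beside 2.7% of all genes higher. All 7 were above 100 FPKM, and the 418 genes at that level had a median log2 fold change of 0.41. Of these 418, 163 were higher at an unadjusted p under 0.05 and 150 were higher without overlap on FPKM. Without WT 8, 83 of the 418 were called higher. Libraries were selected for poly(A), and reads of nuclear copies of mitochondrial DNA may not have been told apart.

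Other assembly genes of complex I without the Nduf name, 13 of 14 listed genes tested, had a median log2 fold change of 0.22 with TMM and -0.07 with library totals. At an unadjusted p under 0.05, 6 were higher and 0 lower, beside 11.5% and 14.8% of all genes. Their median level was 7.73 FPKM, and 20.7% of all genes from 5 to 20 FPKM were higher at that p. Aifm1, which acts in the import and folding of respiratory subunits, was at 26.2, 25.4 and 24.7 FPKM in Prdx1 C52S and at 21.7, 20.4 and 21.4 FPKM in WT. The groups did not overlap (log2 fold change 0.54 with SE 0.13, adjusted p = 0.0874 by edgeR, and 0.0314 without WT 8). Without WT 8, 1 of the 13 was called higher, beside 2.7% of all genes and 181 of the 1411 genes from 20 to 100 FPKM, the class of Aifm1. Ecsit, a member of the assembly complex that holds Ndufaf1, was at 10.8, 10.3 and 11.0 FPKM against 9.27, 9.25 and 9.65 FPKM, also without overlap (log2 fold change 0.47 with SE 0.117, adjusted p = 0.0917 by edgeR). Timmdc1, a membrane-arm factor, had a log2 fold change of 0.33 (SE 0.084, adjusted p = 0.0934 by edgeR) with overlapping FPKM. Oxa1l, the inner-membrane insertase, and Tmem126b, a further member of the complex with Ndufaf1, lay lower on FPKM in every Prdx1 C52S library and are named for that order, with log2 fold changes of 0.07 and 0.09 after TMM. Members of the Ndufaf1 assembly complex thus did not share an order on FPKM. Of the 13 genes, 2 had higher groups without overlap on FPKM and 2 lower ones, beside 6.09% and 36.7% of all genes tested.

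The nuclear subunit genes of complexes II to V, 37 of 38 listed genes tested, gave nearly the values of the complex I subunits. Their median log2 fold change was 0.33 and all 37 were positive, with 22 higher at an unadjusted p under 0.05 (59.5%), beside 11.5% of all genes. On FPKM 10 (27%) had higher groups without overlap and 2 (5.41%) lower, beside 6.09% and 36.7%. Their median level was 78.5 FPKM. Of all genes from 20 to 100 FPKM, 35.9% were higher at that p. On FPKM, 21.5% of that class were higher without overlap and 25.5% lower. Of the 418 genes at 100 FPKM or more, 163 were higher at that p, 150 higher without overlap and 74 lower. Sdhb, the iron-sulfur subunit of succinate dehydrogenase, was at 60.7, 63.8 and 61.6 FPKM in Prdx1 C52S and at 51.7, 48.2 and 54.8 FPKM in WT (log2 fold change 0.54 with SE 0.149, adjusted p = 0.101 by edgeR). Sdhd, its membrane anchor, was at 141.3, 134.8 and 129.3 FPKM against 114.4, 110.9 and 122.9 FPKM, and Cyc1, cytochrome c1 of complex III, had a log2 fold change of 0.37 with overlapping FPKM. Genes of mitochondrial structure and import, 20 genes, had a median of 0.24 with TMM and -0.05 with library totals. At an unadjusted p under 0.05, 8 were higher, beside 11.5% of all genes, led by Opa1 (0.43), Cs (0.62) and Letm1 (0.43). The median level of the 20 was 21.8 FPKM, and 35.9% of all genes from 20 to 100 FPKM were higher at that p. On FPKM 2 of the 20 had higher groups without overlap and 7 lower ones, beside 6.09% and 36.7%. Of the genes named, Cs, citrate synthase of the citric acid cycle, did not overlap on FPKM.

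For 12 regulators of respiratory gene transcription the median log2 fold change was 0.04 with TMM and -0.25 with library totals. At an unadjusted p under 0.05, 2 of them were higher, near the 11.5% of all genes tested. These were Tfam, which packages and transcribes mitochondrial DNA (0.38, SE 0.099), and Yy1, whose letters were searched in the promoters (0.24, SE 0.103). With library totals Tfam was at 0.08 and Yy1 at -0.06. Gabpa, the DNA-binding part of GABP, had a log2 fold change of 0.14 with TMM (SE 0.087) and -0.16 with library totals. On FPKM, 0 of the 12 had higher groups without overlap and 3 had lower ones, beside 6.09% and 36.7% of all genes tested.

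Complex I genes often neighbour or overlap other genes, which bears on counts if strand was not used. Ndufb5 shares 616 exonic bases with genes on the other strand (Mrpl47), Ndufs1 498, Ndufa13 375 (Tssk6) and Ndufaf2 1955 (B230220B15Rik), while Ndufa10, Ndufv1, Ndufaf1 and Ndufaf4 share none. A protein-coding gene started on the opposite strand within 1000 bases upstream for 8 of 37 subunit genes (21.6%) and 4 of 8 assembly factors, beside 9.19% of the 14909 protein-coding genes tested. The partners of the assembly factors were Ercc8 for Ndufaf2, at 108 bases, Esf1 for Ndufaf5, at 85 bases, Cebpz for Ndufaf7, at 70 bases, and Tepsin for Ndufaf8, at 197 bases. Their log2 fold changes were 0.04, 0.03, 0.10 and -0.02, beside 0.36, 0.18, 0.10 and 0.40 for the assembly factors themselves, so the pairs with Ndufaf2 and Ndufaf8 differed in size.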

How the data were processed

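Poly(A)-selected RNA of 6 liver libraries was sequenced, 3 per genotype, with dUTP marking of second strands and adapters that carried molecular identifiers, per the labels' protocols. Of the tools, the submitters' processing notes list edgeR, DESeq2, StringTie 1.3.4d, HISAT2 2.0.4, cutadapt 1.9 and UMI-tools, without roles. Whether counting used strand, and how reads shared by near-identical genes were assigned, is not given in the sources used here. Per gene and library, the authors deposited FPKM values and estimated counts, as named in the file headers. FPKM follow the summed length of all exons of a gene: over 11240 genes at 1 FPKM or more, the length implied by count and FPKM was 1.11 times that sum (5th to 95th percentile 1.11 to 1.12). The notes name the build mm9, but 26790 of the 29642 identifiers found in GENCODE release M21 (of 29734) have identical GRCm38 coordinates, so coordinates are on GRCm38. Estimated counts are not read tallies, and count models may treat low values as more precise than they are.

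After rounding, the estimated counts entered edgeR 4.0.16 (R 4.3.3). Genes were filtered with filterByExpr by group, libraries were scaled by TMM, and genotypes were compared with robust quasi-likelihood F-tests, two-sided and without a covariate. Benjamini-Hochberg adjustment covered the 18931 genes tested, with a threshold of 0.05. The common biological coefficient of variation was 0.31. The SE of a log2 fold change is its size divided by the square root of the F statistic. The fit was tested on simulated data with larger fold changes than those of the Nduf genes and less variation than the 0.31 found here. That test therefore does not bear on differences as small as those of the Nduf genes. Groups were called not overlapping where the lowest library of one genotype exceeded the highest of the other. Gene lists were described by counts and medians, with no test over a list. Alternatives were DESeq2 1.42.0, limma 3.58.1 on log2(FPKM + 0.1) or log2(FPKM + 1), limma-voom with library quality weights, other scalings, no filter on low counts, and leaving out each library. Tables were joined with Python 3.11.15 and pandas 2.3.3.

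The Nduf genes, the gene lists and the tests were chosen with earlier results of these data known. Values in every library are given for the 8 Ndufaf genes, the core subunits, Ndufa4, Ndufa4l2, the 3 accessory subunits with the largest and the 3 with the smallest log2 fold change, and the subunits with the highest and the lowest mean FPKM. Of other lists, at most the 3 members with the smallest p are named, and genes beyond this were named after their values were seen: the other subunit genes without overlap on FPKM, Ndufs6, Tmem126b and Oxa1l, mt-Nd2 to mt-Nd4, and genes named for length, overlap or neighbourhood. A result that the rule covers is not reported here.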

Additional observations from a re-analysis of the deposited data

How the results depend on the processing

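No paired analysis was possible because the groups share no replicate numbers (1, 2 and 4 against 6, 8 and 9). Over all genes, 0 were called higher and 0 lower at an adjusted p of 0.05 by edgeR. The counts higher and lower were 1153 and 1718 with DESeq2, 975 and 962 with limma-voom, 35 and 125 with library totals only, 63 and 208 with limma on log2(FPKM + 0.1), 31 and 59 on log2(FPKM + 1), and 105 and 91 without a filter on low counts. Leaving out 1 library gave between 0 and 522 higher (522 without WT 8, 63 without WT 9) and between 0 and 375 lower (375 without WT 8, 69 without WT 9).

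The 24 subunit genes at an unadjusted p under 0.05 became 1 with library totals only and 2 with either limma fit on FPKM, and between 14 and 34 when a library was left out. The count of 0 subunit genes at an adjusted p became 5 with DESeq2, 10 with limma-voom and between 0 and 2 when a library was left out (2 without WT 8). For the assembly factors the count of 2 became 0 with library totals only, 0 with limma on log2(FPKM + 0.1), 1 on log2(FPKM + 1), 4 with limma-voom and between 1 and 4 when a library was left out. At an adjusted p it became 1 with DESeq2 and 1 with limma-voom.

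The subunit median of 0.34 was 0.042 with library totals only, 0.053 with limma on log2(FPKM + 0.1) and 0.050 on log2(FPKM + 1), and between 0.25 and 0.44 when a library was left out. The assembly factor median was -0.023 with library totals only, -0.017 with limma on log2(FPKM + 0.1) and -0.012 on log2(FPKM + 1). The difference of subunits minus assembly factors was 0.07, between -0.0043 (without Prdx1 C52S 4) and 0.16 (without WT 6) when a library was left out. Leaving out assembly factors under a mean of 1 FPKM removed none.

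Of 322 alternative values for the 23 genes given in every library, 278 kept their sign and their side of the threshold, 14 passed it and 30 changed sign. With library totals only, limma on log2(FPKM + 0.1) and limma on log2(FPKM + 1), in that order, the changed values were -0.20, -0.16 and -0.14 for Ndufaf3, -0.20, -0.19 and -0.17 for Ndufaf4, -0.11, -0.11 and -0.079 for Ndufaf5, -0.21, -0.19 and -0.15 for Ndufaf7, -0.083, -0.074 and -0.071 for Ndufs7, -0.17, -0.16 and -0.14 for Ndufa12, -0.14, -0.12 and -0.12 for Ndufc2, and -0.084, -0.078 and -0.064 for Ndufb2. Ndufa4 was -0.0022 with library totals only. When a library was left out, Ndufaf3 ranged from -0.028 (without WT 6) to 0.21 (without WT 8) and Ndufaf4 from -0.027 (without WT 8) to 0.19 (without WT 9). Ndufa12 was -0.080 with limma-voom, -0.022 without Prdx1 C52S 2 and -0.011 without WT 8. These fits lack the TMM shift of 0.31, apart from limma-voom and those that leave out a library, for which the cause was not tested. Sums with processed copies and rescaled lengths were chosen after seeing the data.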
